A study of Mus musculus with 1 sample.

Results

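Forkhead transcription factors were examined in 1 RNA library of cultured mouse pancreas fibroblasts. They were taken from the deposited table by name, as rows whose symbol is Fox, a letter from a to s and a number; Foxf1, Foxf1a and Foxf2 were left out. This gave 42 genes, each on 1 row, of 23386 genes in the table, and the names fix the set without use of any measured value. The series set fibroblasts grown from pancreas tumours against fibroblasts grown from normal pancreas. Only 1 library was analysed here, from a culture that the labels place with the normal fibroblasts. Its animal came from a mixed background of C57BL/6 with BALB/c and its genotype label includes tf1acre- and Tgfrb2flox/flox, that is, no Cre and floxed alleles of a gene spelled Tgfrb2. The name of its table and of the value column carries a CAF code, the usual abbreviation of cancer-associated fibroblast, which disagrees with the label, and it is referred to below only by its label.

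Forkhead proteins bind DNA through a winged helix domain, whose recognition helix lies in the major groove and reads the base sequence. The FOXA proteins are pioneer factors that open chromatin in endoderm, the FOXO proteins are switched off by insulin and growth factor signalling, and FOXM1 drives genes of mitosis. In connective tissue FOXF, FOXC, FOXD, FOXL and FOXS proteins are known from embryonic mesenchyme and from the cells around blood vessels.

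The table held 52494688 reads, so that 1 read was 0.0190 CPM (reads per 1000000 reads of the table). With 1 library there is no replicate and no test; all intervals below are 95% intervals for counting error and say nothing of differences between cultures. Levels of different genes are compared as CPM per kilobase of exon (CPM per kb), using the union of annotated exons. The library had the defining genes of its labelled cell type: all 8 fibroblast genes on the list were detected, at 366 to 3021 CPM. Genes of other cell types were present as well, with all 7 mesothelial genes at 90.7 to 472 CPM. Of the acinar list, the enzyme genes Cpb1 and Pnlip were highest, at 87.2 and 68.5 CPM. The acinar factor genes Rbpjl and Ptf1a had 21 and 6 reads. In such a bulk library, few cells with much RNA of a gene and many cells with little cannot be told apart.

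To show what the 42 genes share, the codons of the core of the recognition helix are given for 9 of them, from the GENCODE M21 transcripts on GRCm38. Foxs1 is the reference, and capitals in the other lines mark bases that differ from it. The lines hold the gene with the most reads in 6 of the groups described below, the neighbours Foxc2 and Foxl1, and Foxe3, which had no reads.
Foxs1 (chr2:152932919-152932942, minus strand): aacagcatccgccataacctgtct
Foxc2 (chr8:121116963-121116986, plus strand): aacagcatccgccaCaacctgtcA
Foxl1 (chr8:121128244-121128267, plus strand): aacagcatccgccaCaacctgtcG
Foxk2 (chr11:121296029-121296052, plus strand): aaTTCAatTcgccaCaaTctCtct
Foxm1 (chr6:128370957-128370980, plus strand): aacTCTatTcgTcaCaacctTtct
Foxo3 (chr10:42197878-42197901, minus strand): aacTCcatccgGcaCaacctgtcC
Foxn2 (chr17:88463198-88463221, plus strand): aaTTCTGtTcgGcataaTctAtcC
Foxa2 (chr2:148044258-148044281, minus strand): aacTCcatccgccaCTCTctCtcC
Foxe3 (chr4:114925663-114925686, minus strand): aacagcatccgccaCaacctCAcC

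The core spans 8 residues and 24 bases. A stretch within 3 residues of it was found in 41 of the 42 genes, all but Foxr1. It was encoded without a residue change in 23 genes, with 1 change in 14 and with 2 changes in 4, which were Foxp1, Foxp2, Foxp4 and Foxr2. The bases varied far more than the residues: the 23 genes with the identical core used 21 different base sequences. Foxd3, Foxd4 and Foxl1 had the same 24 bases, as did Foxe1 and Foxe3. By number of changes, 16 of the 23 genes with the identical core had at least 10 reads, as did 4 of the 14 with 1 change and 3 of the 4 with 2 changes, beside 67.6% of the protein-coding genes.

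Of the 42 forkhead genes 23 (54.8%) were detected, taken as at least 10 reads, beside 67.6% of the 20559 protein-coding genes. Counts of detected genes in the groups and lists below stand beside that same share. The other 19 had 91 reads between them, 0.178% of all forkhead reads. By number of reads, 12 genes had at least 1000, 6 had at least 100 but under 1000, 5 had 10 to 99, 17 had 1 to 9 and 2 had none. With at least 1 read 40 genes would count as detected, beside 90.9% of coding genes, and with at least 50 reads 19 would, beside 57.7%. The 12 genes with at least 1000 reads were also the ones above the median of detected coding genes, 21.4 CPM. They were 28.6% of the family, beside 33.8% of all coding genes. The median forkhead gene had 0.333 CPM (0.112 CPM per kb), against 4.71 CPM (1.22 CPM per kb) for coding genes. Among detected genes alone the medians were close on the length scale, at 4.62 CPM per kb for forkhead genes and 4.94 CPM per kb for coding genes. All 42 genes together had 51037 reads, or 972 CPM (964 to 981). Foxp1, Foxk2 and Foxm1 took 46% of those reads and the first 10 genes took 87%.

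**Figure D1:**
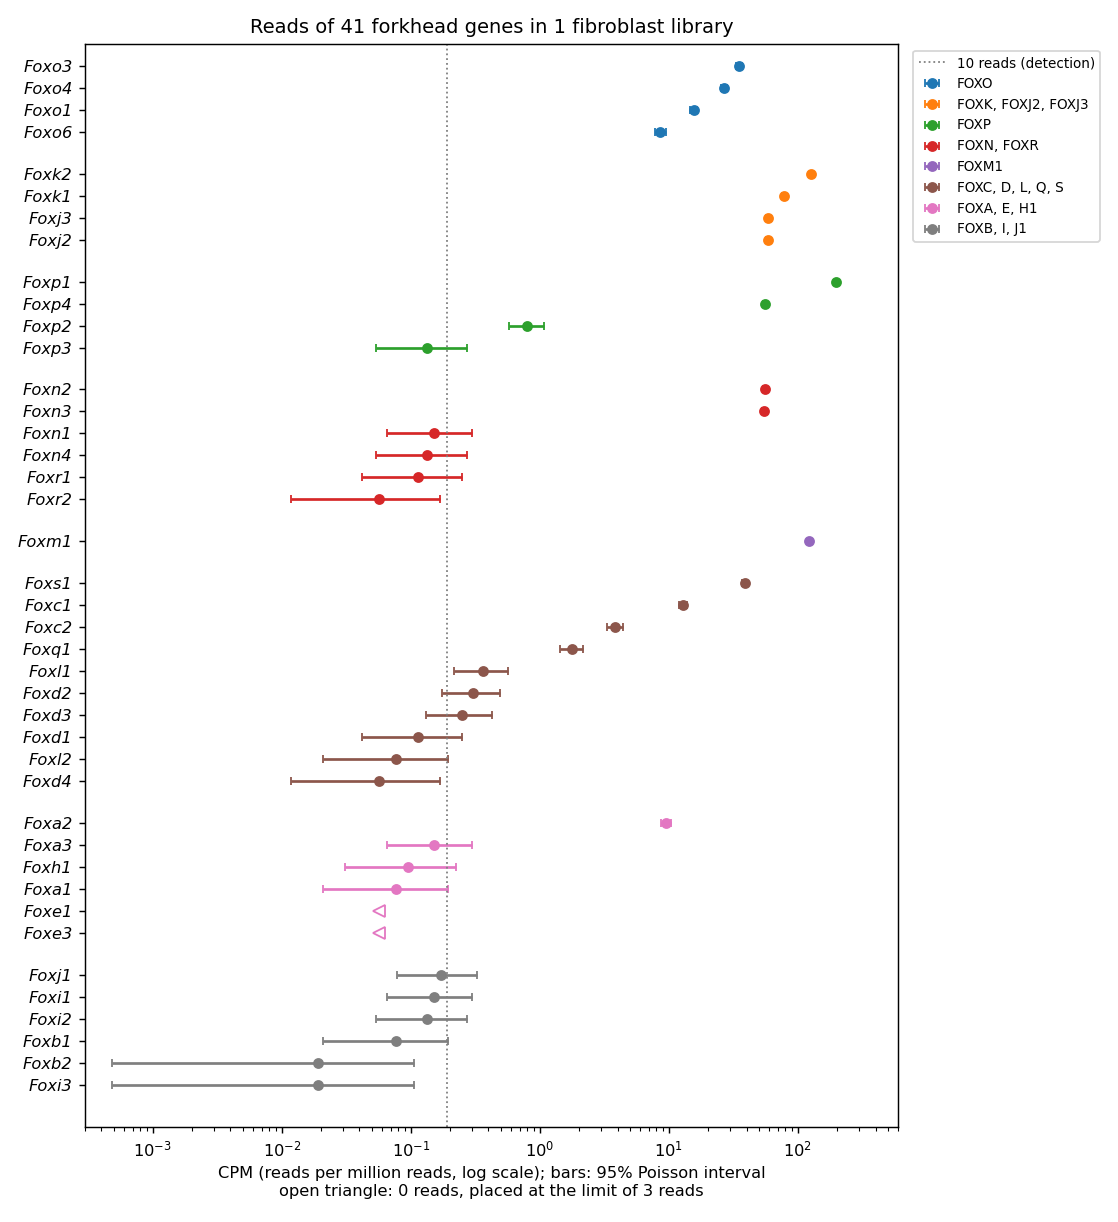
Level of 41 forkhead genes in the library labelled normal fibroblast, in CPM on a log axis, by group; points are the single library and bars the 95% Poisson interval. The 12 genes with at least 1000 reads lie above 21.4 CPM, Foxp1 is farthest right at 198 CPM, and 19 genes lie left of the line at 10 reads, with Foxe1 and Foxe3 at 0 reads drawn at the limit of 3 reads.

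The FOXO proteins are the forkhead factors at the end of the insulin and PI3K pathway: AKT phosphorylates them, 14-3-3 proteins bind them, and most of them then leave the nucleus. All 4 were detected and together held 8.83% of the forkhead reads. Foxo3 had 1838 reads, or 35.01 CPM (33.4 to 36.7). Foxo4 had 1403 reads, or 26.7 CPM (25.3 to 28.2). Foxo1 had 815 reads, or 15.5 CPM (14.5 to 16.6), and Foxo6, best known from brain, had 452 reads, or 8.61 CPM (7.83 to 9.44). Foxo3 and Foxo4 were above the median of detected coding genes in CPM, and Foxo1 and Foxo6 below it. On the length scale Foxo1 was the lowest of the group, at 1.79 CPM per kb, with Foxo6 at 3.29, Foxo3 at 4.62 and Foxo4 at 7.67 CPM per kb. The ratio of Foxo4 to Foxo1 was 4.28 (3.92 to 4.67). Which of Foxo3 and Foxo4 was higher depended on the length used: Foxo4 was 1.66 times Foxo3 with the union of exons, and 0.697 times with the RefSeq-matched transcript.

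The genes that act on FOXO proteins were all present. Of 25 FOXO regulators 25 were detected, with a median of 132 CPM (20.2 CPM per kb, against 1.22 for coding genes). The 14-3-3 genes Ywhae at 733 CPM and Ywhag at 581 CPM and the kinase gene Akt1 at 348 CPM had the most reads, and Sgk3, a kinase related to AKT, the fewest, at 12.8 CPM. Xpo1, the nuclear exporter, had 315 CPM. Of 30 known FOXO target genes 25 (83.3%) were detected, beside 67.6% of coding genes, with a median of 17.0 CPM (3.84 CPM per kb). Rictor, a subunit of an mTOR complex, had 117 CPM, the insulin receptor gene Insr and the autophagy gene Gabarapl1 106 CPM each, and the cell cycle inhibitor genes Cdkn1a and Cdkn1b 78.4 and 56.5 CPM. The 5 targets under 10 reads were Trim63, a muscle ubiquitin ligase, with 2, Igfbp1 with 4, the gluconeogenic genes G6pc and Pck1 with 5 and 6, and the death ligand gene Fasl with 7. Fbxo32, another muscle ubiquitin ligase, had 801 reads, or 15.3 CPM. Target levels were not set against a sample with other FOXO activity.

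FOXK1 and FOXK2 carry a forkhead-associated domain beside the winged helix and repress autophagy genes with SIN3 proteins; FOXK2 also binds the deubiquitinase BAP1. With Foxj2 and Foxj3 they held 33.0% of the forkhead reads, the largest share of the 8 groups. Foxk2 had 6635 reads, or 126 CPM (123 to 129). Foxk1 had 4073 reads, or 77.6 CPM (75.2 to 80.0). Foxj3 had 3080 reads, or 58.7 CPM (56.6 to 60.8), and Foxj2 had 3062 reads, or 58.3 CPM (56.3 to 60.4). All 4 were above the median of detected coding genes. Per kilobase Foxk2 was at 24.0 CPM per kb and Foxk1 at 10.2, a ratio of 2.35 (2.26 to 2.44) that was 2.41 with the RefSeq-matched transcripts. Foxj2 and Foxj3 had nearly the same reads, and their order per kilobase turned with the length: 2.04 in favour of Foxj2 with the union of exons, and 0.901 with the RefSeq-matched transcript.

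The FOXP proteins differ from the other members in dimerising through a zinc finger and leucine zipper, and FOXP1, FOXP2 and FOXP4 act as repressors with the NuRD subunit encoded by Gatad2b, FOXP1 and FOXP2 also with CtBP1. Foxp1, which spans 597405 bases on chromosome 6, had the most reads of all forkhead genes: 10379, or 198 CPM (194 to 202), more than 95.9% of coding genes. Foxp4 had 2899 reads, or 55.2 CPM (53.2 to 57.3). Foxp2, known from speech and motor circuits, had 42 reads, or 0.800 CPM (0.577 to 1.08), and Foxp3, the factor of regulatory T cells, had 7 reads. The group therefore spanned most of the range of the family, with Foxp1 at rank 1, Foxp4 at rank 8 and Foxp2 at rank 20 of the 42 genes by CPM, and Foxp3 under detection. Foxp1 was 1.28 times Foxp4 (1.23 to 1.34) per kilobase of exon union and 1.99 times with the RefSeq-matched transcripts. The genes of the T cell list had a median of 0.171 CPM, and 5 of 11 (45.5%) were detected, beside 67.6% of coding genes. Ctla4 and Tnfrsf18 had 0 reads, while Ikzf2, which other cells also make, had 46.6 CPM. Exons of Foxp3 overlap those of Ccdc22 (1234 reads) and Ppp1r3f (81 reads) on the other strand, so its 7 reads cannot be assigned with certainty.

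The partners of FOXK and FOXP proteins were detected throughout, 16 of 16, at a median of 90.4 CPM (17.0 CPM per kb). Chd4, the remodeller of NuRD, had 448 CPM, Hcfc1, whose product binds BAP1, 345 CPM and the NuRD subunit gene Mta2 254 CPM. Ctbp1 had 207 CPM, Sin3a 105 CPM and Bap1 81.3 CPM. Among the lowest were Hdac1 at 10.3 CPM and Gatad2b at 22.9 CPM, with Hdac2 at 74.7 CPM.

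**Figure D2:**
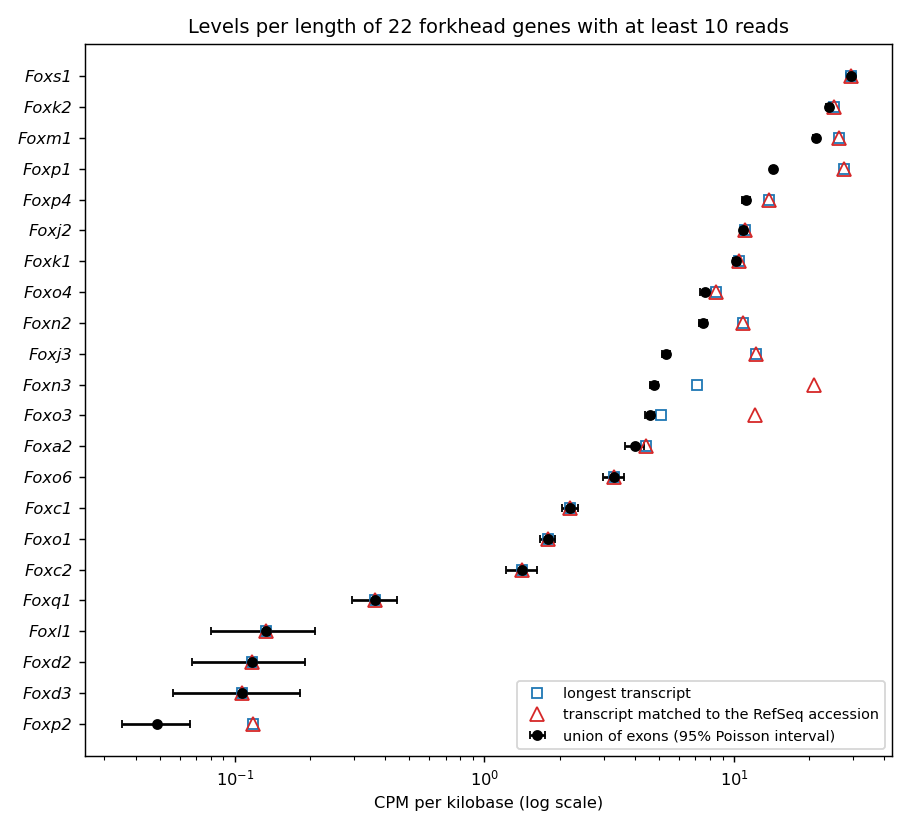
Level per kilobase of exon for 22 detected forkhead genes, in CPM per kb on a log axis, under different gene lengths. Foxs1 is first at 29.4 CPM per kb under each length. With the RefSeq-matched transcript Foxp1 moves up from 14.4 to 27.5 CPM per kb, and Foxn3, Foxo3, Foxj3 and Foxp2 move up as well.

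FOXN2 and FOXN3 are broadly present factors, FOXN3 with a known part in the DNA damage checkpoint, while FOXN1 builds the thymic epithelium, FOXN4 acts in retina and spinal cord, and FOXR1 and FOXR2 are largely restricted to germ cells and tumours. The reads followed that division. Foxn2 had 2905 reads, or 55.3 CPM (53.3 to 57.4), and Foxn3 had 2878 reads, or 54.8 CPM (52.8 to 56.9). Foxn1 had 8 reads, Foxn4 7, Foxr1 6 and Foxr2 3. Foxn3 covers 373587 bases, and its level depended more than most on the length used: 4.77 CPM per kb with the union of exons and 21.0 CPM per kb with the RefSeq-matched transcript. The ratio of Foxn2 to Foxn3 was accordingly 1.58 or 0.518. Of the 7 thymic epithelium genes 4 (57.1%) were detected, beside 67.6% of coding genes, and none reached the median of detected coding genes. Psmb11, a FOXN1 target in cortical epithelium, had 12 reads and Dll4, another, had 5.

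Foxm1 had 6445 reads, or 123 CPM (119.8 to 126), and 21.3 CPM per kb (20.8 to 21.9), which was rank 3 of the 42 genes on both scales. FOXM1 acts with MYBL2 and the LIN subunits of the MuvB complex on promoters of late cell cycle genes. All 12 partner genes were detected, with a median of 54.4 CPM. Cdk1 led at 267 CPM, followed by Cdk2 at 160 CPM and Rbbp4 at 121 CPM, with Mybl2 at 21.5 CPM and Lin52 lowest at 4.17 CPM. All 22 target genes were detected, with a median of 76.5 CPM (20.0 CPM per kb), and 21 of them were above the median of detected coding genes. Top2a, the topoisomerase of dividing cells, had 583 CPM, the kinesin gene Kif20a 291 CPM and the spindle gene Tpx2 199 CPM. Plk1 had 66.7 CPM, Aurkb 64.7 CPM and Ccnb1 47.0 CPM, and the lowest was Cks1b at 20.0 CPM. Genes on both lists are common to dividing cells of any type, and the library gives 1 time point of 1 culture.

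**Figure D3:**
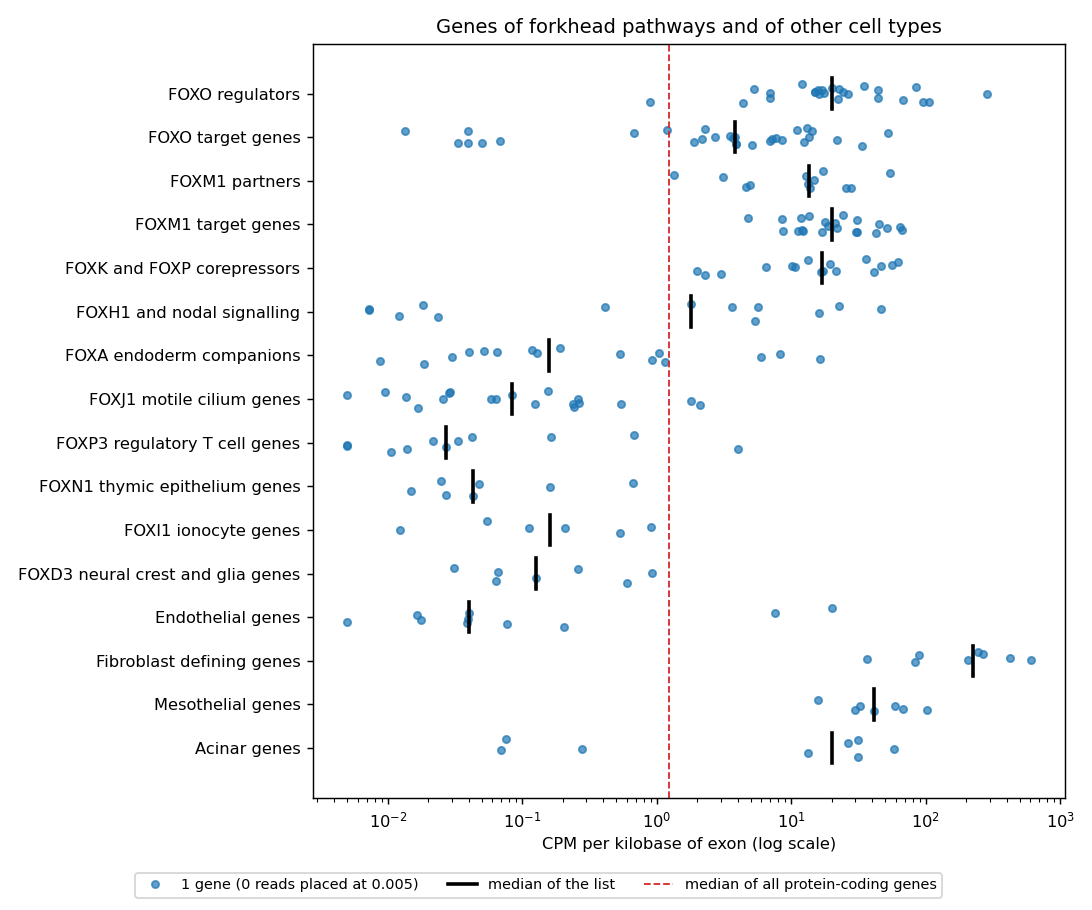
Levels of the genes of 16 lists in CPM per kb of exon on a log axis; each point is 1 gene, black bars are list medians and the dashed line is the median of all protein-coding genes, 1.22 CPM per kb. The FOXO regulators, FOXM1 partners, FOXM1 targets and corepressors lie mostly right of the line, and the lists of FOXJ1, FOXP3, FOXN1, FOXI1 and FOXD3 mostly left of it.

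Among the mesenchymal members, Foxs1 was set apart. FOXS1 is known from pericytes, smooth muscle and sensory neurons of neural crest origin. Its gene has a single exon (chr2:152931898-152933208, minus strand, GRCm38). It had 2026 reads, or 38.6 CPM (36.9 to 40.3), rank 10 by CPM, and 29.4 CPM per kb (28.2 to 30.7), the first of the 42 genes per kilobase with each of 3 gene lengths. All 3 lengths are 1311 bases for Foxs1, so only the lengths of other genes changed. The lead of Foxs1 was 1.22 times (1.16 to 1.29) over Foxk2 and 2.05 times over Foxp1 with the union of exons. With the RefSeq-matched transcript it was 1.07 times (1.02 to 1.12) over Foxp1. Foxf1, left out of the set but of related known use in visceral mesenchyme, had 2258 reads and 17.8 CPM per kb.

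The other mesenchymal members were lower. Foxc1, a factor of mesoderm and of eye and vessel development, had 676 reads, or 12.9 CPM (11.9 to 13.9), and 2.20 CPM per kb. Foxc2, known from lymphatic valves, had 202 reads, or 3.85 CPM (3.34 to 4.42), and 1.41 CPM per kb. Foxq1 had 93 reads, or 1.77 CPM (1.43 to 2.17). Foxs1 was thus 13.4 times (12.2 to 14.6) Foxc1 per kilobase, and Foxc1 was 1.56 times (1.33 to 1.84) Foxc2. Both ratios use 5844 bases of exon for Foxc1. Over its RefSeq span of 3990 bases Foxc1 would be at 3.23 CPM per kb. The first ratio would then be lower and the second higher. Foxl1, which marks the telocytes under the gut epithelium, had 19 reads, or 0.362 CPM (0.218 to 0.565). Foxd2 had 16 reads, or 0.305 CPM (0.174 to 0.495), and Foxd3, a factor of neural crest stem cells, had 13 reads, or 0.248 CPM (0.132 to 0.423). These 3 neighbours in the order did not differ beyond their counting intervals. Foxd1, of kidney stroma, had 6 reads, the ovarian factor gene Foxl2 4 and Foxd4 3. Exons of Foxl2 overlap those of Foxl2os on the other strand, which also had 4 reads. Beside Foxd3 stood the neural crest and glia list, with 5 of 7 genes (71.4%) detected, against 67.6% of coding genes. The list median was 0.267 CPM, with Erbb3 highest at 5.58 CPM and the defining gene Sox10 at 5 reads. Beside the vessel factors Foxc1, Foxc2 and Foxs1 stood the endothelial list, in which Kdr at 181 CPM and Flt1 at 102 CPM were high while Cdh5 had 17 reads, Pecam1 13 and Cldn5 0; its part in their levels was not tested.

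Of the 6 endoderm and related factors only Foxa2 was detected (16.7%, beside 67.6% of coding genes). Foxa2, of liver, gut and pancreas endoderm, had 497 reads, or 9.47 CPM (8.65 to 10.3), and 3.99 CPM per kb, more reads than 55.8% of coding genes. Foxa3 had 8 reads and Foxa1 4, so that Foxa2 was 53.4 times (26.9 to 124) Foxa3 and 174 times (67.7 to 643) Foxa1 per kilobase. Foxh1, the nodal pathway factor, had 5 reads, and Foxe1 (thyroid) and Foxe3 (lens) had none. For 0 reads the set limit was 3 reads or 0.0571 CPM, and the exact interval reached 0.0703 CPM. The list of FOXA companions had 12 of 16 genes detected (75%, beside 67.6% of coding genes), at a median of 0.159 CPM per kb. Of these only Gata6, which mesoderm also makes, was above the median of detected coding genes, at 106 CPM. The epithelial genes Krt18 and Krt19 had 11.8 and 11.1 CPM, Cdh1 5.26 CPM and Epcam 1.16 CPM, while Hnf4a had 48 reads, Onecut1 4 and Pdx1 1. Acinar enzyme genes stood at 23.5 to 87.2 CPM, and the acinar factor genes Rbpjl and Ptf1a at 21 and 6 reads. The part of epithelial RNA in the Foxa2 level was not tested.

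Of the 13 genes of the nodal pathway, in which FOXH1 acts with SMAD proteins, 8 (61.5%) were detected, beside 67.6% of coding genes. Smad4 had 171 CPM, Smad2 141 CPM and Smad3 126 CPM. The receptor genes Acvr2a, Acvr1b and Acvr2b had 30.5, 16.2 and 1.62 CPM. Among the ligand genes Gdf1 had 298 reads, or 5.68 CPM, while Gdf3 had 3 reads and Nodal 2. Levels of the ligand genes thus differed. The co-receptor gene Tdgf1 had 1 read, and of the antagonist genes, both nodal targets, Lefty1 had 520 reads, or 9.91 CPM, and Lefty2 1 read.

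In the neural, ciliary and ionocyte group 6 genes had 9 reads or fewer: Foxj1 had 9, Foxi1 8, Foxi2 7, Foxb1 4, Foxb2 1 and Foxi3 1. Of the 19 genes on the motile cilium list set beside Foxj1, 13 (68.4%) were detected, beside 67.6% of coding genes. The list median was 0.419 CPM, and Rfx3, which acts in other ciliated cells too, was highest at 23.3 CPM. Tekt1 had 0 reads, Dnaic1 2 and Spag6 4. Of the ionocyte genes 4 of 6 (66.7%) were detected, near the 67.6% of coding genes. The list median was 0.610 CPM, with Tfcp2l1 at 8.52 CPM, Cftr at 4.15 CPM and Ascl3 at 2 reads.

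Several members lie next to each other. On chromosome 8 Foxf1, Foxc2 and Foxl1 follow on the plus strand, with 28.0 kb and then 8.8 kb between them, and their reads were 2258, 202 and 19. Foxf1 was 12.6 times (10.9 to 14.6) Foxc2 per kilobase, and Foxc2 was 10.6 times (6.58 to 17.9) Foxl1. On chromosome 13 Foxq1, Foxf2 and Foxc1 follow with 64.8 kb and 175.2 kb between them, and had 93, 146 and 676 reads. Foxd2 and Foxe3 lie 15.5 kb apart on chromosome 4 and had 16 and 0 reads. Within each of these 3 clusters the neighbours differed in reads. Exons of 11 members overlap another annotated gene, 7 of them on the opposite strand, and 3 of those 7, Foxj2, Foxo1 and Foxq1, were detected. Whether the counting used strand is unknown from the sources used here. Overlaps with protein-coding genes on the same strand, which strand would not separate, included Foxp1 with Gm20696 and Foxm1 with Tex52 and Gm44596.

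The members also differ in gene structure. Of the 14 single-exon genes 8 were detected, beside 19.3% of single-exon coding genes. Of the 14 genes with 2 to 4 exons 5 were detected, beside 58.9% of such coding genes, and of the 14 with at least 5 exons 10 were, beside 79.0%. At least 1000 reads were found for 9 of the genes with many exons, for 2 of those with few and for 1 with a single exon, Foxs1. Median levels were 6.43 CPM per kb with at least 5 exons and 0.112 CPM per kb with 1. The same counts and medians were not computed for coding genes, whose detected share rose with exon number, from 19.3% to 79.0%. These differences can therefore not be called particular to forkhead genes.

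Promoter windows, 250 bases before to 50 after a start, were found in the RefSeq table (GRCm38.p6) for 27 of the 42 genes, in 32 windows. The CpG ratio is the number of CG steps over the number that the C and G content gives; the highest ratio over a gene's starts is used. The 5 windows below show the ends of the range and the exceptions, with CG in capitals.
Foxk2 (chr11:121259737-121260036, plus strand): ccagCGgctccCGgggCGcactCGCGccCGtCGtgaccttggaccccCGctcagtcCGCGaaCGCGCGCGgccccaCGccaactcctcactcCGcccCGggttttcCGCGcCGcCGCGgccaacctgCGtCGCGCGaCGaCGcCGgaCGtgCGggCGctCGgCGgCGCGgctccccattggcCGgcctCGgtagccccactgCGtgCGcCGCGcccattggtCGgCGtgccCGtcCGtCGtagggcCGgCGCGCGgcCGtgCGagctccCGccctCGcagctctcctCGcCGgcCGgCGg
Foxn3 (chr12:99450025-99450324, minus strand): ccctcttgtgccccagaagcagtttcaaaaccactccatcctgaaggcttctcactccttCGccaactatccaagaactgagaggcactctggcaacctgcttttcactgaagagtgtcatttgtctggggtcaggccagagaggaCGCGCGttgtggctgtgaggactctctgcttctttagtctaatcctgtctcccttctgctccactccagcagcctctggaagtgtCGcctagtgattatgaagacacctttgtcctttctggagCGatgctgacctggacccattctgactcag
Foxa1 (chr12:57546062-57546361, minus strand): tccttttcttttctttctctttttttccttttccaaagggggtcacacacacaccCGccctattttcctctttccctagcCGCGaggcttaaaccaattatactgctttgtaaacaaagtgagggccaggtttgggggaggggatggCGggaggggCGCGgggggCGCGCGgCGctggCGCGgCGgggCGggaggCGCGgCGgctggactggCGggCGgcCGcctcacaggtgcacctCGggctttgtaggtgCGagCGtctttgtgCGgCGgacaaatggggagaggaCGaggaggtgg
Foxi3 (chr6:70956356-70956655, plus strand): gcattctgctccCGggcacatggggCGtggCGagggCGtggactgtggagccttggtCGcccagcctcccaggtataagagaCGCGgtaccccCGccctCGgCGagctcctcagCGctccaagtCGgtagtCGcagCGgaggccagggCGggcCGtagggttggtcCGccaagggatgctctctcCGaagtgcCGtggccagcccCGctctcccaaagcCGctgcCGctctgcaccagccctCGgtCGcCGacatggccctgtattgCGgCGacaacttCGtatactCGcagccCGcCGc
Foxr2 (chrX:153118538-153118837, plus strand): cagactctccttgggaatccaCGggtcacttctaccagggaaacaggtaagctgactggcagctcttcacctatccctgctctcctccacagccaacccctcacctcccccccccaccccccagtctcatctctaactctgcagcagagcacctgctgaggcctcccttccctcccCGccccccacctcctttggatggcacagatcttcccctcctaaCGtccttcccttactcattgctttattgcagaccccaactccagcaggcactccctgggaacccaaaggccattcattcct

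Foxk2 had the highest ratio, 1.28 with 59 CG steps, and Foxr2 the lowest, 0.151 with 3. Of the 12 detected genes with a window 11 (91.7%) had a ratio of at least 0.6, beside 73.3% of detected coding genes. Of the 15 genes under 10 reads 8 (53.3%) did, beside 12.5% of such coding genes. The medians were 0.887 and 0.619, beside 0.774 and 0.204. With the highest ratio per gene, the share was above that of coding genes in both classes, by more among the genes under 10 reads. Neither difference was tested. Among the detected genes, Foxp1 and Foxa2 reached 0.6 only at starts inside the gene, with ratios up to 1.11 and 0.767. Their windows nearest the upstream end had 0.499 and 0.548. Foxa1 had a ratio of 0.929 with 4 reads, and Foxi3 0.871 with 1 read. In the other direction stood Foxn3, with a ratio of 0.294 and 2878 reads. Its only window lies inside the gene, whose upstream end is at chr12:99563667. No window was found at that end, so the CpG ratio there is unknown. The forkhead motif GTAAACA was searched on both strands and found in 1 of the 32 windows, that of Foxa1, beside 3.65% of 32851 windows in the table. The CCAAT box was found, on either strand, in 15 of 32 (46.9%), beside 37.4%. Neither motif contains the other, and a match is of letters only.

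**Figure D4:**
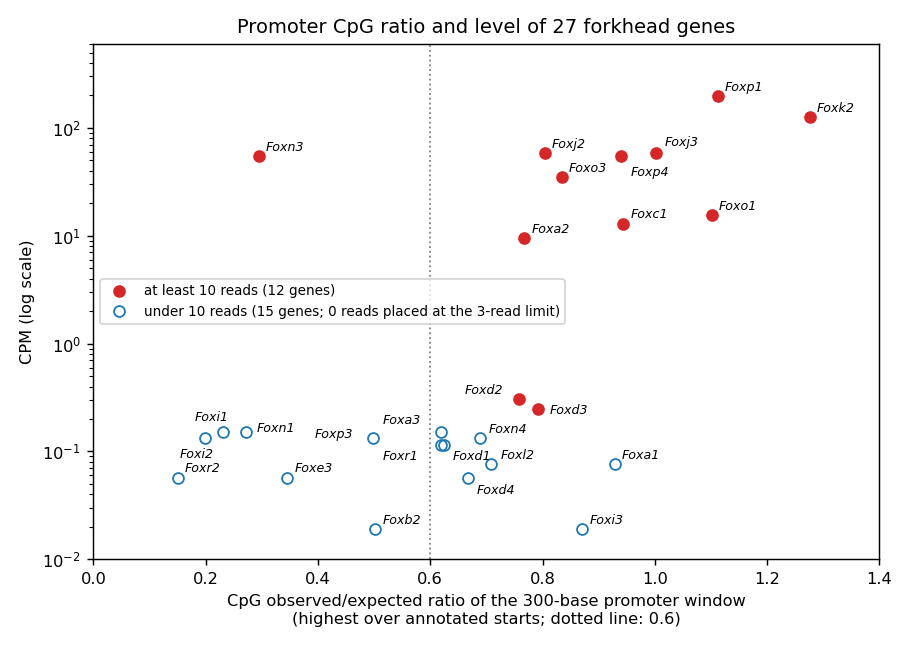
CpG ratio of the 300-base promoter window against the level in CPM (log axis) for 27 forkhead genes; filled points have at least 10 reads. Of the 12 detected genes 11 lie right of the dotted line at 0.6, Foxn3 lies left of it, and Foxa1 and Foxi3 lie at the lower right. The Foxn3 window lies inside the gene, away from its upstream end. Foxp1 and Foxa2 are drawn at starts inside the gene, and their windows nearest the upstream end lie under 0.6.

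Beside other families of transcription factors, the forkhead genes, at 54.8% detected, stood between the Sox genes (52.6%) and the Hox genes (59.0%), and below the Klf genes (88.2%). Of 19 Sox genes 10 were detected, at a median of 0.190 CPM, led by Sox12 at 112 CPM. Of 39 Hox genes 23 were detected, at a median of 0.305 CPM, led by Hoxb9 at 29.8 CPM. Of 17 Klf genes 15 were, at a median of 15.7 CPM, led by Klf6 at 459 CPM. These counts describe 1 library and were not tested.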

How the data were processed

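Total RNA of 1 culture was made into a SOLiD library, per the labels' protocols. The deposited table gives 1 signal value for each of 24214 gene rows. Of the authors' 20976 values above 0, 100.00% are whole multiples of 1 fitted step, 1.18 when rounded (within 0.01 read). They were taken as reads divided by a size factor of 0.850. The design had assumed counts; the recovered reads were used. DESeq and mm10 are named, without a role, in the submitters' processing notes. For the aligner, the counter, its strand setting and the annotation, "not given in the sources used here" applies.

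CPM are reads per 1000000 of the 52494688 reads. Intervals are exact (Poisson for levels, Clopper-Pearson for shares, conditional binomial for ratios), at 95%, and cover counting error only. They treat reads as independent. Reads are not independent molecules, so the intervals can be too narrow even for that error. A gene with at least 10 reads counted as detected, and for 0 reads a set limit of 3 was used. Rows of 1 gene were summed, and 94.1% of rows matched a RefSeq accession. Exon lengths come from GENCODE M21 (99.2% of coding genes). The rule names every member and, of each list, the 3 highest, up to 3 lowest and the best known partners; a few items that it would name, or that the counts include, are not reported here. The members and lists were chosen with earlier results of these data known. The step search was tested on simulated data. Intervals were computed with scipy 1.17.1, tables handled with pandas 2.3.3 and numpy 2.4.6 under Python 3.11.15, and figures drawn with matplotlib 3.10.9. Alternatives were other detection limits, totals, lengths and pseudocounts; the RefSeq-matched length and the order by CPM were added after seeing the data.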

Additional observations from a re-analysis of the deposited data

How the results depend on the processing

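The number of detected forkhead genes was 23 with at least 10 reads, 40 with at least 1 read and 19 with at least 50 reads. The summed level of 972 CPM became 303 after division by length and rescaling to 1000000, 1301 without the 100 most abundant genes and 1058 over protein-coding genes only; the last 2 scalings shift every gene by 0.42 and 0.12 on the log2 scale. The median of log2(CPM + 0.5) was -0.26, and 4.77 over genes with at least 10 reads or 2.42 with a pseudocount of 5. The share of Foxp1 was 20.3% of forkhead reads and 8.57% per length; without Foxp1, the share of Foxk2 was 16.3%. Foxs1 was at rank 1 per kilobase with each of 3 lengths, which are equal for Foxs1 itself, and at rank 10 by CPM. Of 16 list medians 13 moved after division by length and 9 with only detected genes; single levels moved in 22, 19 and 14 of 42 genes under the 3 other scalings. These moves follow from the scale or from the genes left out. No replicate could be left out. No paired analysis was possible because there is 1 library. At this depth 1 read was 0.0190 CPM. For a gene with 0 reads the set limit was 3 reads, or 0.0571 CPM, and the exact interval reached 0.0703 CPM.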
